A study of Mus musculus with 2 samples.

Results

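Foxp2 peaks deep inside gene bodies were taken as peaks whose summit lay between the start and end of at least 1 RefSeq gene and more than 2 kb from every start or end of any RefSeq gene, on chromosomes 1 to 19 and X. Of 944 deposited peaks, 390 met this definition (41.3%, 95% Wilson interval 38.2 to 44.5). A further 218 summits lay within 2 kb of a gene boundary and 336 lay outside genes beyond that distance. The choice used positions only and no measured height. Chromatin came from C1.1, a line of mouse kidney tubular epithelial cells, carrying a Foxp2 CRISPR Activation Plasmid under stable selection. Chromatin was fixed with 1% formaldehyde, and 1 Foxp2 ChIP library was sequenced beside 1 library of input DNA, with both libraries made from the activated cells. Cells without activation and a control antibody were not analysed here, and the ChIP had no replicate, so no test between conditions was possible. A peak list holds no expression, so the labelled cell type could not be checked against its markers. The title of the series concerns fibrosis of the kidney, with arrest of the cell cycle and the change of epithelial into mesenchymal cells.

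Foxp2 belongs to the forkhead family of transcription factors, whose winged-helix domain reads short AT-rich words in DNA. It is best known for its role in neural circuits for vocal and motor learning, and it mostly acts as a repressor, alone or paired with its relatives Foxp1 and Foxp4. Gene bodies consist mostly of introns, which hold many enhancers and silencers as well as internal start sites of shorter transcripts. A factor bound in an intron may act on the host gene, on a neighbour or on neither, so the host gene names a place and not a target.

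Sequence could be shown where a peak touched a listed transcript start inside its host gene, since start windows of RefSeq GRCm38.p6 were at hand and the genome was not. Each window runs 5′ to 3′ along the gene from 250 bases before the start to 50 bases after it. Among 384 deep peaks on chromosomes with listed starts, 5 summits lay within 1 kb of one (1.30%, Wilson interval 0.557 to 3.01), against 0.634% of all deep gene body. The peaks themselves overlapped 3 windows, shown here because they are the stretches of peak DNA that the sources hold, with capitals marking the bases inside the peak. The first lies at chr5:52782805-52783104 on the plus strand in Zcchc4, an RNA methyltransferase gene. The next lies at chr9:82975440-82975739 on the minus strand in Phip, which encodes a bromodomain protein. The last lies at chr13:32025351-32025650 on the plus strand, at an internal listed start of the noncoding gene Gm35672, which lies inside Gmds.
Zcchc4: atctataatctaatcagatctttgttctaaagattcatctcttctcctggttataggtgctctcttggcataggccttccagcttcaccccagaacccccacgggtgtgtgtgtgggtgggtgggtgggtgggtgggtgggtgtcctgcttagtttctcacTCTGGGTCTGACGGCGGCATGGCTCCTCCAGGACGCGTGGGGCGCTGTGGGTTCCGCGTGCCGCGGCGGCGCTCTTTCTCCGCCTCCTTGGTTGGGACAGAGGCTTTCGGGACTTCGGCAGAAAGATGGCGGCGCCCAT
Phip: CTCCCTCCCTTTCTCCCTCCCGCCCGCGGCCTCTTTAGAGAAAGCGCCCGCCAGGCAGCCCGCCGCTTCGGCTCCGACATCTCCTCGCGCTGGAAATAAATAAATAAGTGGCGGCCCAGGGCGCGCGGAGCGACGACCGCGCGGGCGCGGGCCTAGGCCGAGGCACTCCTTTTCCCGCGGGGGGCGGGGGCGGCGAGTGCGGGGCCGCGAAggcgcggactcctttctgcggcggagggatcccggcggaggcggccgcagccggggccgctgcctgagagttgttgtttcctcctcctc
Gm35672: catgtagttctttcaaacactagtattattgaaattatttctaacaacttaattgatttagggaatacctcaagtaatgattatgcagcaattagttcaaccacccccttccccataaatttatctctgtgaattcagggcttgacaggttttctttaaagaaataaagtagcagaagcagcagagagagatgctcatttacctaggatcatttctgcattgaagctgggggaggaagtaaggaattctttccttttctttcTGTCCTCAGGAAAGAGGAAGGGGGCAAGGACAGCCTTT
The Zcchc4 summit (fold 4.03) stood 20 bp from the listed start, inside a window of 59% GC with 17 CG pairs. The Phip summit (fold 3.44) stood 264 bp from its listed start, with 211 window bases inside the peak, 72% GC and 41 CG pairs. The Gm35672 summit (fold 10.7) stood 131 bp from the listed start. Only 38 bases of this window fell inside its peak, and the window had 38.3% GC with 0 CG pairs. All 32851 listed windows had a median of 52.7% GC (quartiles 45.7 and 61.7) and 7 CG pairs (quartiles 3 and 20). The Zcchc4 window lay above both medians but between the quartiles. In both measures the Phip window lay above the upper quartile and the Gm35672 window below the lower.

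Forkhead words were searched in these windows on both strands. Of all windows, TGTTTAC was held by 3.65%, its variant TGTTTAT by 4.597%, the related TATTTAT by 5.598% and the further form TGTTTGC by 5.07%, with 17.04% holding at least 1 of these. Only Phip held a match among the 3 windows. It had TATTTAT on the opposite strand at positions 96 and 100, counted from 1 at the 5′ end, and these matches overlap each other and lie inside the peak. The AP-1 word TGANTCA (7.81% of windows) matched in none of the 3 windows. Beyond 264 bp, the remaining summits near a listed start were in Oxsm, a mitochondrial fatty acid synthase gene (532 bp, fold 7.08), and Crybg1 (786 bp, fold 5.13).

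Deep peaks were, at the median, 5.37-fold over local background at the summit (95% order-statistic interval 5.13 to 5.62, quartiles 4.37 and 7.36, range 3.001 to 32.0), by the authors' values. The median was 5.06 at gene boundaries (4.88 to 5.37) and 5.04 outside genes (4.84 to 5.23), so the intervals overlapped. Of the deep peaks, 236 had a fold of 5 or more (60.5%, Wilson interval 55.6 to 65.2), as did 51.4% of boundary peaks (44.8 to 57.9) and 51.5% of those outside genes (46.2 to 56.8). Local background also differed by position. It sat at its lowest value of 3.09 scaled reads in 47.7% of deep peaks, 42.2% of boundary peaks and 38.7% of those outside. The part of background in the difference in fold was not tested. Background was highest in Ppp2r2b, a phosphatase regulatory subunit gene, at 23.9 scaled reads under 132 ChIP fragments (fold 5.35). Median peak width was 263 bp (183 to 1029), and the median summit held 24 ChIP fragments (13 to 140). Library depth is unknown, and every interval here covers counting error only.

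**Figure D1:**
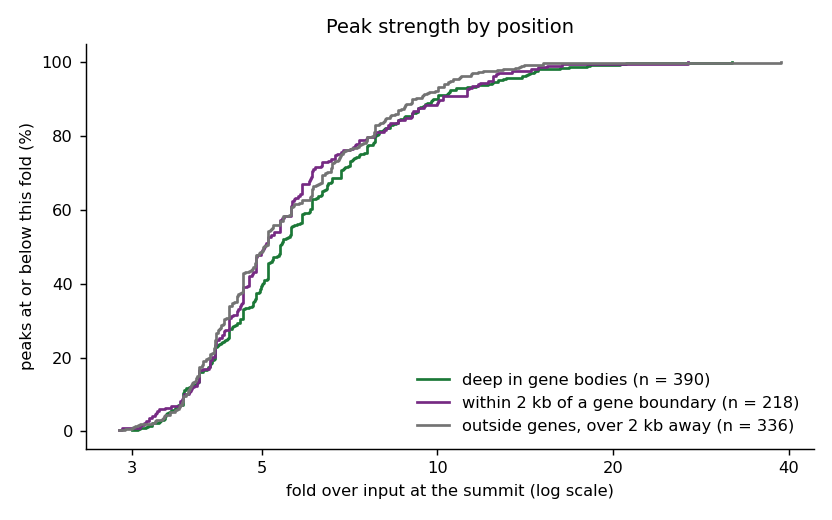
Cumulative percent of peaks at or below each fold over background (log scale) for deep peaks (390), peaks within 2 kb of a gene boundary (218) and peaks outside genes (336). The deep curve runs to the right of the others around a fold of 5, where the medians are 5.37, 5.06 and 5.04, and the curves meet at both ends.

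Deep peaks were 13 of the 20 largest folds in the list (65%), 26 of the 50 largest (52%) and 45 of the 100 largest (45%). They made up 41.3% of the 944 peaks analysed. Me3, the mitochondrial malic enzyme that makes NADPH from malate, carried the largest at 32.0-fold (exact Poisson interval 26.9 to 37.7), from 140 fragments over a background of 3.41. The summit lay at chr7:89769641, 137 kb into a gene of 222 kb. Gpr39, a zinc-sensing receptor, followed at 21.1 (16.96 to 25.9), with its summit 24.8 kb inside a gene of 197 kb. Foxk1, a forkhead repressor of autophagy and starvation genes, stood at 20.5 (16.4 to 25.4), 21.5 kb from the nearest gene boundary. Only these 3 deep peaks passed a fold of 20, and 39 passed 10.

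Cell adhesion and surface genes were among the next folds. Tns4, a tensin that binds integrin tails, had 18.2-fold (14.5 to 22.7). The acid-sensing channel gene Asic2 reached 16.8 (13.8 to 20.3) at a summit 1019 kb into its 1088 kb span. Itgb5, the vitronectin receptor subunit, had 14.7, the growth factor gene Fgf2 had 14.9 and Abca4, a retinoid flippase known from photoreceptors, also had 14.9. These peaks lay 5.02 to 57.0 kb from the nearest boundary of any gene.

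The other hosts of the 20 largest folds ran from lipid transfer to cytoskeleton. Arid5b, a DNA-binding regulator of adipocyte formation, had 16.2, and the predicted gene Gm35330 had 18.1. Asrgl1, an asparaginase, had 14.6. Dnajc12, a co-chaperone of amino acid hydroxylases, had 14.4, and Synrg, a partner of the AP-1 clathrin adaptor, had 14.3. Osbpl9, a sterol-binding protein, had 14.2 and the noncoding Pvt1 had 13.96. Tmprss11c, a membrane serine protease, had 13.9 and the formin Fmnl3 had 13.8. Fbxo47, Gm31115 and Aff2 closed this series at 13.1, 12.9 and 12.7. From the 20th to the 3rd place the pileup thus ran from 51 to 83 fragments, except 105 at Asic2, so neighbours in this order had overlapping intervals.

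**Figure D2:**
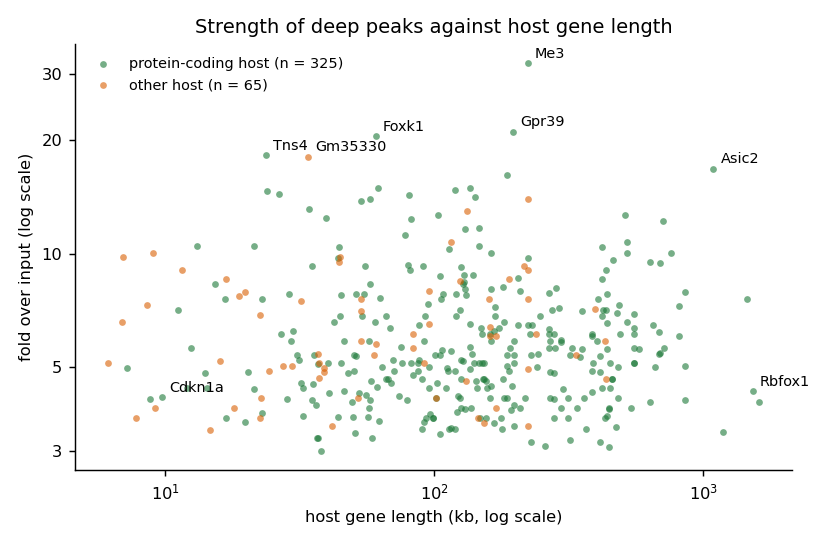
Fold over background at the summit (log scale) against host gene length in kb (log scale) for 390 deep peaks, with coding and noncoding hosts in separate colours. Spearman's rank correlation was 0.0200 over these peaks, and the 3 folds above 20 lie in hosts of 60.5 to 222 kb.

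Fold showed little ordering by the length of the host gene. Spearman's rank correlation was 0.0200 over 390 peaks and 0.0374 over the 325 with a coding host, given as a description since the peaks share 1 library. Asic2 was both among the longest hosts and among the highest folds, whereas the longest, Nrxn3, had 4.05.

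The 390 summits lay in 356 host genes, which is 1.29% of the 27629 genes that have any sequence over 2 kb from all boundaries. Protein-coding hosts numbered 276 (1.59% of 17388) and lncRNA hosts 76 (0.843% of 9016), and the remaining 4 were 2 misc_RNA genes and 2 pseudogenes. A coding host was present for 325 peaks (83.3%, Wilson interval 79.3 to 86.7). Summits in 2 genes at once numbered 27, of which 9 lay in genes of opposite strands, 1 in genes of the same strand and 17 in pairs with a strand missing. Those 27 were counted for both genes, so Arid5b shares 2 of its summits with the noncoding Gm51770 and Syn3 both of its own with 4930486F22Rik.

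Host genes were long. Their median length was 104.6 kb (order-statistic interval 91.3 to 124, range 6.10 to 1612), against 19 kb for all genes with a deep body. Among coding hosts the median was 125.4 kb against 24.7 kb, and 184 hosts (51.7%) exceeded 100 kb, as did 9.92% of genes. Longer genes offer more deep sequence, so density per Mb of that sequence was compared. It was 0.365 peaks per Mb (exact Poisson interval 0.330 to 0.403) in deep gene body, 0.741 (0.645 to 0.846) near boundaries and 0.269 (0.241 to 0.299) outside genes, where assembly gaps were not subtracted. Coding deep body held 0.352 per Mb and lncRNA deep body 0.501 (0.4003 to 0.620).

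**Figure D3:**
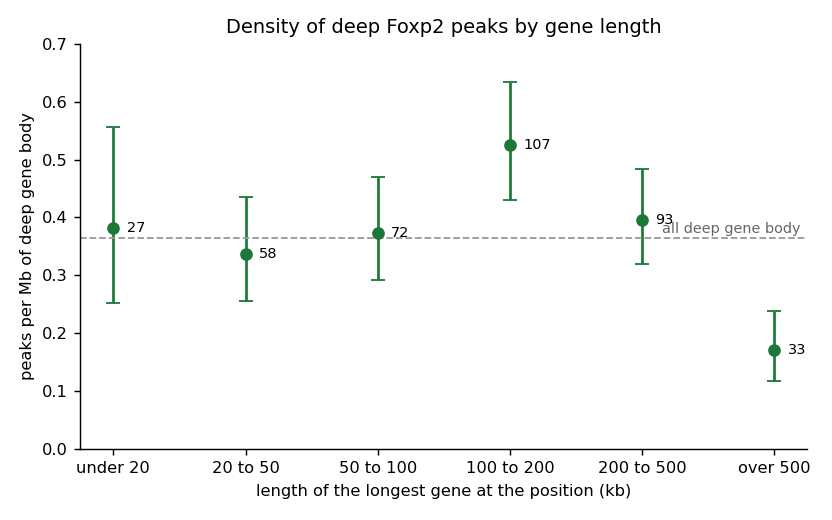
Deep peaks per Mb of deep gene body by the length in kb of the longest gene at the position, with exact 95% Poisson intervals and a line at the density of all deep gene body. Density was highest at 100 to 200 kb (0.525) and lowest over 500 kb (0.170).

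Density did not climb steadily with length but was highest at 100 to 200 kb. Genes of 100 to 200 kb had 0.525 peaks per Mb (0.431 to 0.635, 107 peaks) and genes over 500 kb had 0.170 (0.117 to 0.239, 33 peaks), a ratio of 0.324 (0.212 to 0.482). Genes under 20 kb had 0.382, those of 20 to 50 kb 0.337, those of 50 to 100 kb 0.373 and those of 200 to 500 kb 0.395. Chromosomes differ in density, so peaks were also placed at the rate of each chromosome, which gives 73.2 peaks at 100 to 200 kb and 69.6 over 500 kb where 107 and 33 were found.

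The longest coding hosts were mostly synaptic or adhesion genes with 1 peak each. Nrxn3, a presynaptic adhesion gene of 1612 kb, had 4.05-fold, and Rbfox1, a neuronal splicing regulator of 1528 kb, had 4.31 at a summit 634 kb from any boundary, the farthest of all. Cdh13, the T-cadherin gene of 1185 kb, had 3.36, and Asic2 was also among the 5 longest. At the average rate of deep gene body these 4 would hold between 0.375 and 0.584 peaks each. As hosts they hold at least 1 peak by choice, so these values show no excess.

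The shortest coding hosts held single peaks of low to middling fold. The smallest, 1810010H24Rik, spans 7.18 kb and had 4.96. Hoxb6, a homeobox gene of 8.76 kb, had 4.11. Cdkn1a, the p21 inhibitor of cyclin-dependent kinases, spans 9.74 kb and had 4.17 (2.62 to 6.33). Oxsm (11.2 kb) had 7.08 and the serine protease gene Prss46 (12.02 kb) had 4.40.

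Position within the host was read in coding genes whose strand is known, which held 255 summits. With the deep span of each gene cut into 3 equal parts, the first part held 95 (37.3%, Wilson interval 31.6 to 43.3), the middle part 97 (38.0%) and the last part 63 (24.7%, 19.8 to 30.3). The deep sequence available was 33.3%, 33.5% and 33.2%, so the last part had 0.267 peaks per Mb (0.205 to 0.341) against 0.401 and 0.408. The ratio of the last part to the rest was 0.659 (0.488 to 0.880) and median folds were 5.37, 5.43 and 5.36 from the first part to the last. Me3 and Asic2 lay in the middle and last parts, and Gpr39 and Fgf2 in the first.

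Several peaks fell in 45 genes, 0.163% of the 27629, and these held 100 of the 390 peaks (25.6%). There were 28 such genes when only peaks reaching a −log10 q of 5 were kept, and 33 when summits within 10 kb were merged. Of the 45, 10 had 3 or more and 35 had exactly 2. Some of the 45 add no peak of their own. Gm51770 shares both its summits with Arid5b, Gm51971 with Akap6 and 4930486F22Rik with Syn3. Sites in 1 gene share its chromatin and are not replicates.

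**Figure D4:**
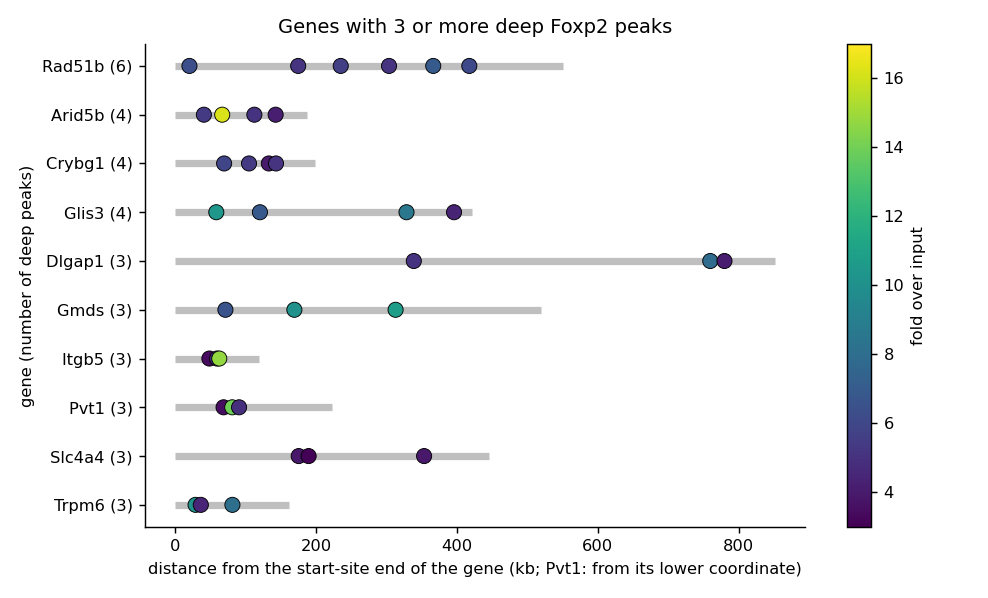
Summits of the 10 genes with 3 or more deep peaks, drawn along each gene in kb from its start-site end (Pvt1 from its lower coordinate), with colour giving fold. Grey bars are the whole genes; Rad51b holds 6 spread over 397 kb, and Itgb5 holds 3 within 14.05 kb.

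Rad51b, a gene of homologous recombination, had the most. From its start, summits stood at 20.3, 175, 235, 304, 366 and 418 kb, with folds of 6.35, 5.13, 5.62, 5.13, 6.92 and 6.11. Its folds were alike, with all intervals overlapping, and 5 of the 6 were at the lowest background. At the average rate its deep body would hold 0.195 peaks. Rad51b was named for having the highest count, so setting its 6 peaks against this value is no test.

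Arid5b, Crybg1 and Glis3 followed with 4 each. Arid5b held peaks of 5.37, 16.2, 5.05 and 4.15-fold over 102 kb. Glis3, a zinc-finger factor whose loss causes neonatal diabetes and cystic kidneys, held 4 of 10.4, 6.84, 8.55 and 4.40 over 338 kb. In Arid5b the interval of the highest peak (12.6 to 20.6) lay above those of the other 3, whereas in Glis3 the highest (7.57 to 13.98) overlapped others.

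Slc4a4, the basolateral sodium-bicarbonate cotransporter of the proximal tubule, held 3 of 3.91, 3.07 and 3.88. Trpm6, the magnesium channel of the distal convoluted tubule, held 3 of 10.0, 4.45 and 8.06. Folds in Slc4a4 were thus all lower than each fold in Trpm6. The interval of the lowest Trpm6 fold (2.73 to 6.89) nevertheless overlapped that of the highest Slc4a4 fold (2.29 to 6.29).

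Itgb5 held 3 peaks within 14.05 kb, of 3.42, 4.88 and 14.7. Pvt1, a noncoding gene next to Myc, held 3 within 22.0 kb of 3.49, 13.96 and 4.94, all over a background above the lowest value. Crybg1, which encodes an actin-associated beta/gamma-crystallin protein, held 4 of 5.86, 5.37, 3.97 and 5.13 over 73.7 kb. Gmds, which makes GDP-fucose precursors, held 6.59, 10.0 and 10.7 over 242 kb. Dlgap1, a postsynaptic scaffold, held 5.05, 7.91 and 4.08 over 441 kb.

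Among coding genes with 2 peaks, the larger fold was highest in Plcb1, a phospholipase C (9.46 and 5.445), and Nfatc2, a calcineurin-dependent factor (9.19 and 5.23). Lmo7, a junction-associated LIM protein, had 8.62 and 6.48. Gsr, glutathione reductase, had 7.79 and 5.13. Slc8b1, the mitochondrial sodium-calcium exchanger, had 7.56 and 3.79.

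Adgrl3, a latrophilin, had 7.26 and 6.03, and Synpo, the synaptopodin of podocyte foot processes, had 6.84 and 4.64. Srpk2, a kinase of splicing factors, had 6.58 and 4.15. Cacna2d1, a calcium channel subunit, had 6.55 and 5.59, and Kansl1, of a histone acetyltransferase complex, had 6.49 and 4.96. Hs3st3a1, a heparan sulfotransferase, had 6.48 and 5.22, Srgap1, a GTPase-activating protein, had 6.32 and 6.11, Slc22a23 had 6.24 and 3.55, and Zfhx3, a homeodomain factor, had 6.19 and 5.43. Gaps between the summits of a pair ranged widely, from 0.403 kb in Axl, a receptor tyrosine kinase, and 0.69 kb in Slc8b1 to 207 kb in Plcb1. The remaining coding pairs had larger folds of at most 6.11. Among noncoding pairs, Gm51770 aside, Gm12610 had 9.04 and 7.57 and Gm4876 had 7.94 and 6.49.

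**Figure D5:**
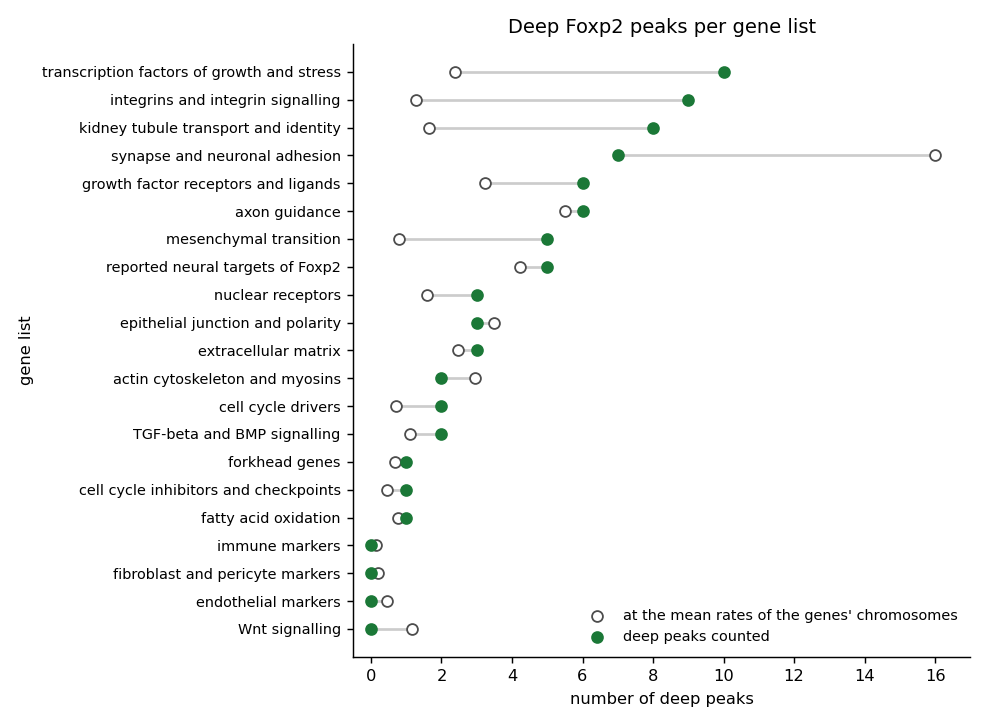
Number of deep peaks counted in each of 21 gene lists (filled circles) and the number that the rates of the genes' chromosomes would place in their deep sequence (open circles). Counts exceed the open circles most for growth and stress factors (10 against 2.37) and integrins (9 against 1.28), and fall short most for synapse genes (7 against 15.99).

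Functional lists were described by their hosts and by peaks found beside the peaks that the rates of their chromosomes would place in their deep sequence. The lists were compiled with earlier results of these data known, they overlap, and their genes differ in length, so no count is a test. Integrins and integrin signalling had hosts in 7 of 44 genes (15.9%, Wilson interval 7.93 to 29.4) with 9 peaks against 1.28. Besides Itgb5 and Tns4 these were Itga2, a collagen receptor subunit (3.66), Itgb6, which activates latent TGF-beta (7.08), Lims1, the PINCH adaptor (4.15), Nedd9, a docking protein (3.66), and the kinase Src (4.82). The median fold of the list's 9 peaks was 4.82, below the 5.37 of all deep peaks.

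Kidney tubule genes had 4 hosts of 60 (6.67%) with 8 peaks against 1.64, and 6 of those 8 came from Slc4a4 and Trpm6. Slc12a1, the furosemide-sensitive cotransporter of the thick ascending limb, had 11.2 (8.48 to 14.6). Mesenchymal transition genes had 4 of 35 (11.4%) with 5 peaks against 0.782. Axl had 4.40 and 3.72, Met, the receptor of hepatocyte growth factor, had 4.40, and the matrix glycoprotein gene Tnc had 5.13. Transcription factors of growth and stress had 7 of 55 (12.7%) with 10 peaks against 2.37, and 4 of those lay in Arid5b. Tead1, the Hippo pathway factor, had 6.11 and Arid1b, a chromatin remodeller, had 5.59. Fosl2, Nfib and Runx2 had 3.20 to 4.37.

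Other signalling lists held few peaks. Growth factor receptors and ligands had 5 of 49 genes with 6 peaks against 3.22, including Igf1r (5.62), Insr (8.79), Fgf2, Met and Axl. TGF-beta and BMP signalling had 2 of 43 with 2 peaks against 1.102: the BMP receptor Acvr1 (6.84) and Ltbp1, which holds latent TGF-beta (4.31). Wnt signalling had 0 of 50 genes (Wilson upper bound 7.13%) against 1.18. Extracellular matrix had 3 of 60 with 3 against 2.47, in Col8a1 (8.06), Lama2 (9.53) and Tnc. Epithelial junction and polarity had 3 of 50 with 3 against 3.49, in Dlg5 (4.88), Prkci (3.91) and Shroom3, an apical constriction protein (8.10). Actin and myosin genes had 2 of 57 with 2 against 2.96, in Fmnl3 and Dst (5.86).

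Cell cycle lists were small. Inhibitors and checkpoints had 1 of 37 with 1 peak against 0.462, in Cdkn1a. Cell cycle drivers had 2 of 39 with 2 against 0.705, in Cdk14 (5.58) and Cdk6 (4.87). The forkhead family had 1 of 25, Foxk1, against 0.685, and nuclear receptors had 3 of 47 with 3 against 1.59, in the mineralocorticoid receptor Nr3c2 (5.31), Rarb (6.45) and Thra (4.11). The list for fatty acid oxidation had 1 of 29 against 0.776. That host was Me3, a malic enzyme gene that the list included although malic enzyme is not a step of that pathway.

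Neural lists were read against their great lengths. Genes reported as neural targets of Foxp2 had 5 hosts of 27 (18.5%) but 5 peaks against 4.23, in Reln (9.61), Rarb, Dcdc2a (4.597), Met and Epha4 (3.66). Axon guidance had 6 of 62 with 6 against 5.49, among them Ntn4 (8.75), Sema3a (6.95), Sema3e (6.48), Efna5 (4.84) and Plxna2 (3.49). Synapse and neuronal adhesion genes had 5 of 59 (8.47%) with 7 peaks against 15.99, at 0.146 per Mb (0.0589 to 0.302), below the 0.365 of all deep body. The hosts included Dlgap1, Dlgap2 (10.0), Nrxn3 and Rbfox1, and the median gene of the list spans 791 kb.

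Markers of other cell types had no deep peak: 0 of 19 fibroblast and pericyte genes, 0 of 15 immune genes and 0 of 16 endothelial genes (upper bounds 16.8%, 20.4% and 19.4%), where 0.191, 0.156 and 0.461 peaks would lie at chromosome rates. Gene families were mostly near those rates. Solute carriers had 9 peaks against 5.92, among them Slc12a8 (11.7), and ion channels 10 against 7.74, among them Trpm8, the cold receptor (12.4), Kcnh7 (6.11), Kcnma1 (5.62) and Kcnq3 (4.38). Zinc finger Zfp genes had 3 against 3.86, ADAM proteases 1 against 1.81, Rab proteins and regulators 2 against 2.09 and receptor tyrosine phosphatases 1 against 2.65. Protein kinase C, MAP kinase and diacylglycerol kinase genes had 4 against 2.61, and G protein-coupled receptors 5 against 2.33, among them Adgrg1 (12.4). Cadherins and protocadherins had 1 against 5.12, in Cdh13, and phosphodiesterases 0 against 1.87. Olfactory and vomeronasal receptors had 0 against 1.51, the microRNA host gene Mir100hg was the 1 host in its group of 8, and predicted Gm and Rik genes had 83 against 69.4.

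Deep peaks were spread unevenly over chromosomes. Chromosome 17 had the highest density at 0.715 per Mb of deep body (0.471 to 1.04, 27 peaks), followed by chromosomes 5 (0.661) and 10 (0.629). The X chromosome was lowest with 0.0643 (3 peaks) and chromosome 9 next with 0.0718 (4 peaks). On chromosomes 17 and 5 the background stood above its lowest value at 88.9% and 79.5% of deep peaks, whereas on chromosome 10 it did so at 34.3%, and the part of background in these densities was not tested. The distance to the nearest boundary had a median of 16.8 kb (quartiles 6.85 and 34.7), and 27 summits (6.92%) lay over 100 kb from any. The summits just inside the 2 kb limit were in Rnf144b at 2008 bp (4.64), Pla2g7 at 2068 bp (10.4) and Kank3 at 2186 bp (5.61). Those just outside it lay in 4930417H01Rik at 1989 bp (5.64), Zfp874b at 1978 bp (4.88) and Gm41577 at 1965 bp (3.33).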

How the data were processed

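The measurement was ChIP-seq for Foxp2 in 1 library, with 1 input library, grouped from the labels. MACS2, bcl2fastq and mm10 were named in the submitters' processing notes, with aligner, read filters and versions not given in the sources used here. For each peak, the deposited list gives the authors' fold (a ratio of ChIP to local background), their −log10 p and −log10 q values, a score and a summit offset. The deposited score equalled the whole part of 10 times −log10 q (ceiling 1000) in 100% of peaks and was left aside. Peak numbers ran to 983 and 39 were not analysed here, 8 of them below the lowest number present.

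With fold as (pileup + 1) / (background + 1), whole ChIP pileups and backgrounds were recovered from the authors' fold and −log10 p, with −log10 p reproduced to within 2.05e-05. Library depth is unknown. Intervals printed with folds are exact 95% Poisson intervals of the pileup, with background held fixed. They cover counting error only, since reads are not independent molecules. Summits were placed on 49554 RefSeq genes of GRCm38.p6. Listed starts (32619) covered 26794 genes, and 273 of the hosts had a strand. Exons, introns and UTRs, GC content of peaks and the motif search planned within 100 bases of summits were not analysed here, as no genome was used, and words were searched in start windows only.

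Named genes were the hosts of the 20 largest folds, genes with 3 or more summits, the first 15 coding genes with 2 summits by larger fold, the 5 longest and 5 shortest coding hosts, and hosts on the gene lists (21 lists and 14 families). For lists and families with many hosts only some are named. A few genes and 1 family that the rule names are not reported here. Genes beside listed starts or the 2 kb limit, Axl as the closest pair and Ppp2r2b were chosen after their values were seen. So were Syn3, Akap6, the noncoding genes that share their summits, and 2 noncoding pairs. Members and lists were chosen with earlier results of these data known. Alternatives listed beforehand numbered 27: −log10 q of at least 5, whole peaks, 1 or 5 kb limits, coding genes only, and merging or counting peaks otherwise. The input library's own file was not used here. Calculations used numpy 2.4.6, pandas 2.3.3, scipy 1.17.1 and matplotlib 3.10.9, and the scripts were tested on simulated data.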

Additional observations from a re-analysis of the deposited data

How the results depend on the processing

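Of 39 alternatives, 9 moved a value beyond its interval, or a count by over 1.5 times, and 0 reversed one. Keeping peaks with −log10 q of at least 5 lowered the deep peaks from 390 to 278, which is within 1.5 times. It also raised the median fold to 6.35 and lowered density to 0.260 per Mb, genes with 2 or more peaks to 28 and the share of genes hosting a peak to 0.937%. Median host length became 129.6 kb with each peak counted once, 125.3 kb with a 5 kb limit and 125.1 kb for coding genes only. The hosting share was 1.47% with the 5 kb limit and 1.67% for coding genes only. The density ratio of genes over 500 kb to those of 100 to 200 kb ran from 0.248 to 0.388, and that of the last part of genes to the rest from 0.621 to 0.705, under alternatives chosen after seeing the data. With a single ChIP library and unknown depth, no spread between replicates could be given. No paired analysis was possible because each group had 1 library.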
